A study of Homo sapiens with 24 samples.

Results

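FRG1, FRG2, FRG2B, FRG2C, DUX4 and LRIF1 are the 6 genes described here: 5 that lie in the region of D4Z4 repeat copies or inside them, and the gene of a protein that keeps that repeat silent. They were taken by name from 19866 protein-coding genes, and the measure was the length, in kb, of each RefSeq span plus 2 kb on each side that lay under broad peaks of histone H4 trimethylated at lysine 20 (H4K20me3). The choice was made with these peak lengths in view, so the lengths over the 6 genes are given as a description, with no test. The tests below are on peaks outside the 6 windows.

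H4K20me3 was mapped by CUT&RUN, in which an antibody directs a nuclease to cut out the chromatin that carries the mark, in HN-SCC-151 cells, an HPV-negative line of head and neck squamous cell carcinoma whose genotype is labelled wild type. Cells treated with A-196 at 2.5 µM (3 libraries) were set against DMSO cells (3 libraries), and cells with siRNAs to SUV420H1 (siSUV420H1, 4 libraries) against cells with control siRNAs (siNC, 4 libraries). Each treatment lasted 6 days, and 500000 cells went into each reaction. A-196 inhibits the methyltransferases SUV420H1 and SUV420H2 (KMT5B and KMT5C), and the siRNAs were directed to SUV420H1 alone. The series design speaks of 3 dishes per condition, whereas both siRNA groups hold 4 libraries, so some of these may share a dish, and the spread behind each p-value is one between libraries.

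The D4Z4 repeat near the end of the long arm of chromosome 4 holds a copy of DUX4 in each unit. DUX4 is a homeobox transcription factor of the early embryo that is silent in most adult tissues, and facioscapulohumeral muscular dystrophy arises when the repeat is shortened or loses its repressive chromatin and DUX4 is made in muscle. FRG1 and FRG2 were named as genes of that region. FRG2B and FRG2C are FRG2 copies on chromosomes 10 and 3, where related repeats lie. LRIF1 binds HP1 and SMCHD1, a pair of heterochromatin proteins that hold D4Z4 silent. H4K20me3 is a mark of compact chromatin at satellite and other repeats.

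The promoters of the FRG2 copies and of DUX4 are shown first, since near-identical copies can trade sequencing reads. Each runs from 250 bases before the start of the gene to 50 bases after it and was taken from RefSeq (GRCh38.p14). The table held 5 of the 6 genes, all but LRIF1. In the FRG2 pair below, FRG2 at chr4:190027207-190027506 (minus strand) and FRG2C at chr3:75664078-75664377 (plus strand), capitals mark the bases that differ between them.

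FRG2: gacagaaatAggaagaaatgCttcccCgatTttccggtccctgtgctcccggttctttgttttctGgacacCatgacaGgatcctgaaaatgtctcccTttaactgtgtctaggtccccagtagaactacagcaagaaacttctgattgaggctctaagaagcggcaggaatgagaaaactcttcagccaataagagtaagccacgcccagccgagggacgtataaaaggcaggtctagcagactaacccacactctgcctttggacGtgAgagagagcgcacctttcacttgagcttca
FRG2C: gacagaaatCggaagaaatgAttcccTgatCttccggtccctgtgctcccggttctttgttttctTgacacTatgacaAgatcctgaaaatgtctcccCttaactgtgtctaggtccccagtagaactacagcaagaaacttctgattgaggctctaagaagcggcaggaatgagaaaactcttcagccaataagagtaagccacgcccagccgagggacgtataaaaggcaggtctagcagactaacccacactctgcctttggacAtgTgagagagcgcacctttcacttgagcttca

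FRG2 and FRG2C shared 290 of 300 bases (96.7%), with 10 mismatches and no gap. FRG2B, at chr10:133626746-133627045 on the minus strand, shared 299 of 299 aligned bases with FRG2. Each of the 3 held the letters TATAAA once, on the strand shown, and 11.5% of 35116 promoters of this length held them on either strand. A read from this stretch of FRG2 could not be told from one of FRG2B. How the authors treated reads that fit several places is not given in the sources used here, so a peak over one copy may hold reads of another. In the DUX4 promoter, at chr4:190173524-190173823 on the plus strand, capitals mark CG, the dinucleotide that can carry DNA methylation.

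DUX4: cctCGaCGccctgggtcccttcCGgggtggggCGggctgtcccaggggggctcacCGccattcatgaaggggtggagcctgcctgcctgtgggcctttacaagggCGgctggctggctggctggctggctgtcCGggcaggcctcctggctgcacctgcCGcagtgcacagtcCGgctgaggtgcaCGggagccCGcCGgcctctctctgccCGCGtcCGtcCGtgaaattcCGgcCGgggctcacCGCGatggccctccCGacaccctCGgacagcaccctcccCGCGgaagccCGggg

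It held 25 CG, and 32.0% of promoters held at least as many, against a median of 14. The FRG1 promoter held 30, those of FRG2 and FRG2B 9 each and that of FRG2C 8.

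The libraries differed in how much of the genome their peaks covered. Peaks covered 79.6 to 107 Mb in A-196 libraries and 145 to 153 Mb in DMSO libraries. They covered 118 to 130 Mb in siSUV420H1 libraries and 183 to 193 Mb in siNC libraries. The number of peaks was 8505 to 13464 with A-196, 8430 to 8921 with DMSO, 9325 to 10203 with siSUV420H1 and 13818 to 14675 with siNC. The lists give the ends of each peak, with no score or read count, so the depth is unknown and a longer covered length cannot be told apart from more peaks called at a greater depth. The files used here hold no RNA or protein measure, so neither the knockdown of SUV420H1 nor the expression of any gene was checked.

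A window with at least 200 bp under the peaks of a library counted as marked there. A lost gene was one that no treated library and every control library marked, and a gained gene the reverse. Of the 6 genes, LRIF1 was lost and FRG2C was gained under both treatments, DUX4 was marked in all 14 libraries, and FRG1, FRG2 and FRG2B were marked in none. Over all coding genes with A-196, 353 (1.78%) were lost and 161 (0.81%) gained. Without A-196 replicate 3 those counts were 552 and 441, and leaving out A-196 replicate 1 gave 348 gained genes. With siSUV420H1, 593 (2.98%) were lost and 68 (0.342%) gained. Length was lower in every treated library for LRIF1 and higher for FRG2C in both arms. Over all coding genes it was lower in every A-196 library for 5.51% and higher for 1.09%, and lower in every siSUV420H1 library for 6.74% and higher for 2.08%. The 6 genes were picked from these very values, so nothing is read from their number.

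**Figure D1:**
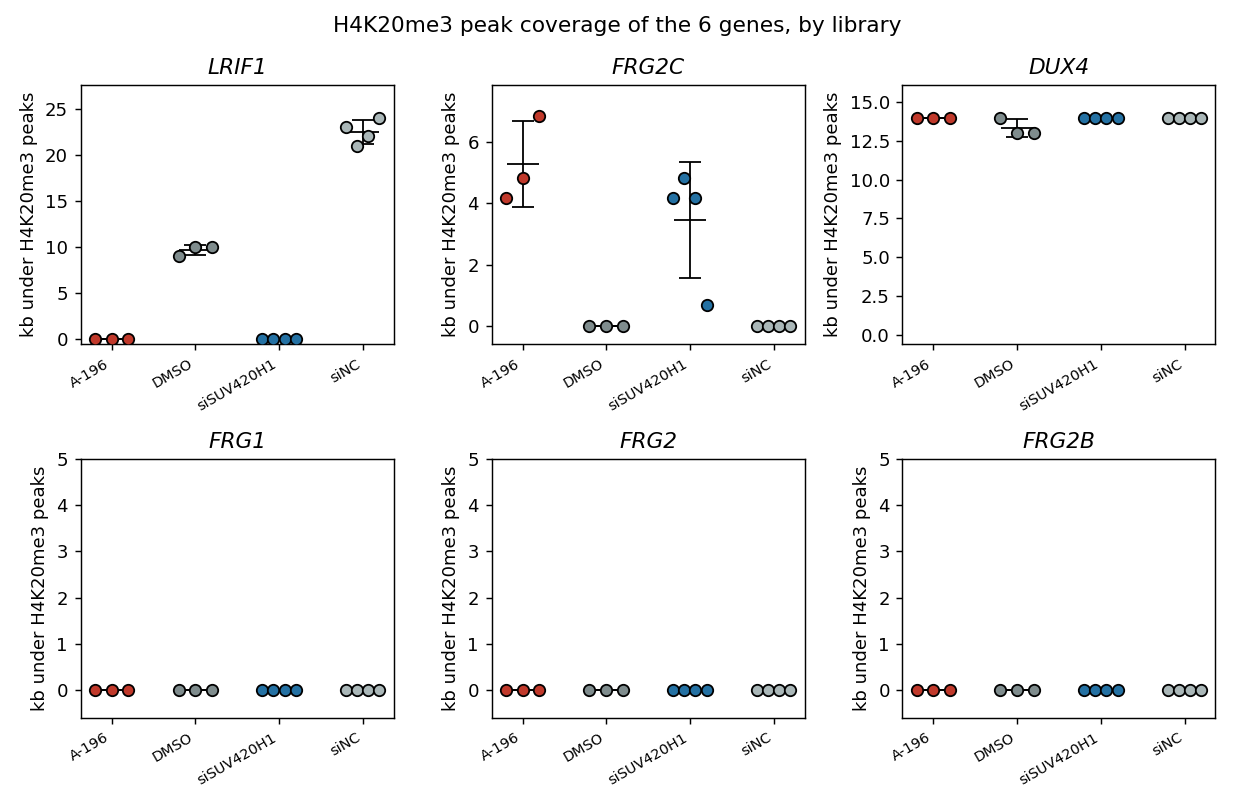
Length of each gene's window (RefSeq span plus 2 kb on each side) under H4K20me3 peaks, in kb, for each library; points are libraries, and bars are the mean and SD of 3 (A-196, DMSO) or 4 (siSUV420H1, siNC) libraries. LRIF1 was at 0 kb in every treated library and at 9 to 24 kb in the controls, FRG2C was above 0 in treated libraries alone, and DUX4 lay at 13 or 14 kb throughout.

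LRIF1, the factor of D4Z4 silencing, lost its only peak in both arms. Its span is chr1:110874957-110963922 (hg38), 89.0 kb. The length under peaks was 0 kb in each of the 3 A-196 libraries, against 9, 10 and 10 kb in DMSO libraries. It was 0 kb in each of the 4 siSUV420H1 libraries, against 23, 21, 22 and 24 kb in siNC libraries. Treated and control libraries thus did not overlap in either arm. The means were 0 kb with A-196 and 9.67 ± 0.58 kb with DMSO (SD, n = 3 each), and 0 kb with siSUV420H1 and 22.5 ± 1.29 kb with siNC (SD, n = 4 each).

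The LRIF1 peak was a single block inside the RefSeq span of the gene. In DMSO libraries it ran from 110911001 or 110912001 to 110921000, and 9 kb were common to all 3. In siNC libraries it ran from 110908001 or 110909001 to between 110930000 and 110933000, with 21 kb common to all 4, so the siNC block enclosed the DMSO block. Neither block reached the ends of the span: 33.0 to 37.0 kb of the span lay before it and 30.9 to 42.9 kb after it. No other annotated gene lay under it, CD53, which overlaps the start of the LRIF1 span, included. The gene table holds spans without exons or single transcripts, so the block was not assigned to exon or intron. Whether it lies within the main transcript of LRIF1 was not tested. In treated cells the nearest peak lay outside the gene, 26.1 to 335 kb from its window in A-196 libraries and 97.0 to 132 kb in siSUV420H1 libraries.

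**Figure D2:**
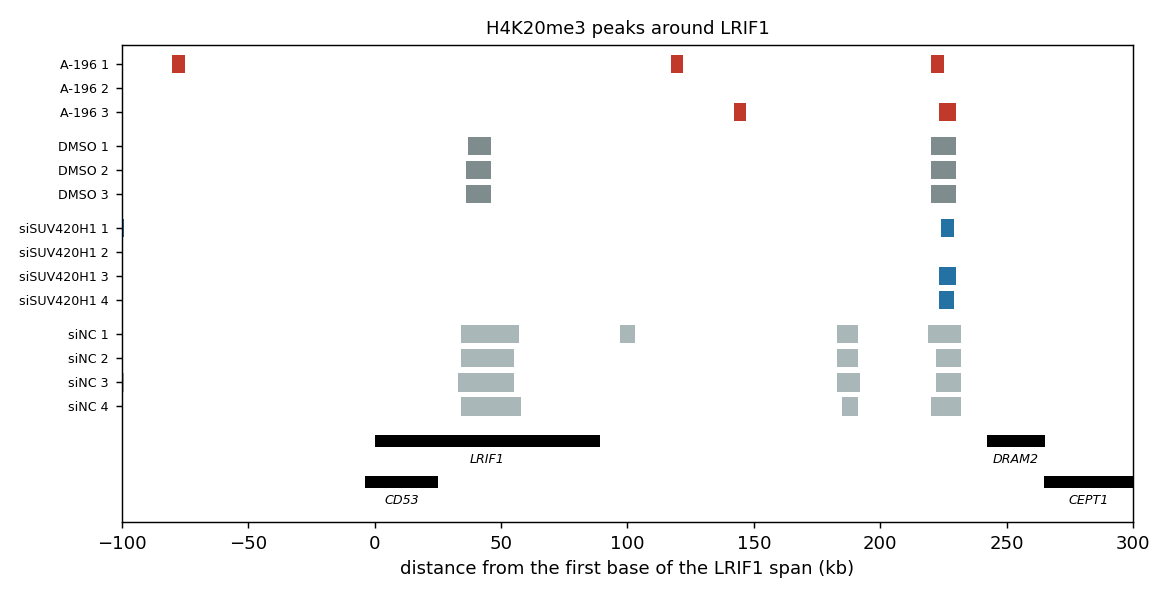
H4K20me3 peaks of each library (coloured blocks, 1 row per library, number = replicate) from 100 kb before to 300 kb after the first base of the LRIF1 span; black bars are annotated coding genes, and the x axis is distance in kb. The block inside the LRIF1 span is absent from every A-196 and siSUV420H1 library and present in all 3 DMSO and all 4 siNC libraries.

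LRIF1 was 1 of 99 coding genes lost in both arms (0.498% of all coding genes), a set that made up 28.0% of the A-196 list and 16.7% of the siSUV420H1 list. Over the 14 libraries the coding genes whose lengths were most like those of LRIF1 were ST8SIA4 (Pearson r = 0.994), a sialyltransferase, COLGALT2 (r = 0.990), a collagen galactosyltransferase, and SLFN12L (r = 0.981). All 3 were at 0 kb in every treated library. ST8SIA4 averaged 8.33 kb in DMSO and 19.2 kb in siNC libraries, close to the LRIF1 means. These likenesses are descriptions over libraries that differ in covered length. The loss of LRIF1 in the siRNA arm was kept under all 14 other settings tried. In the A-196 arm it was kept under 11 of 12. It ended there when each library was held to its widest peaks up to the covered length of the smallest library, under which LRIF1 was also unmarked in DMSO. Settings that left out a library, or changed the flank or the smallest overlap, could not have ended the loss in either arm. The call already held in every library, and the block was long and lay inside the span.

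FRG2C, the FRG2 copy on chromosome 3, was the 1 member under peaks in treated cells and not in their controls. Its span is chr3:75664328-75667173, 2.85 kb. In A-196 libraries 4.17, 4.85 and 6.85 kb of its 6.85 kb window lay under peaks, against 0 kb in each DMSO library. In siSUV420H1 libraries 4.17, 4.85, 4.17 and 0.673 kb lay under peaks, against 0 kb in each siNC library. The groups did not overlap, but siSUV420H1 replicate 4 was far below its 3 partners and its 0.673 kb lay in the flank, with none in the gene. That length came from a 5 kb peak before the gene, at 75658001-75663000, and not from the domain past the gene. A-196 replicate 2 and siSUV420H1 replicate 2 had a peak there too, besides the one over the gene. The means were 5.29 ± 1.39 kb with A-196 and 0 kb with DMSO (SD, n = 3 each), and 3.47 ± 1.89 kb with siSUV420H1 and 0 kb with siNC (SD, n = 4 each).

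The peaks over FRG2C were shorter in every A-196 library than in siSUV420H1 replicates 1 to 3. In A-196 libraries a peak of 9, 9 and 16 kb began at 75665001 (replicates 1 and 2) or 75658001 (replicate 3), and each ended at 75674000. The next A-196 peak began at 75677001 in each library, so its separation rests on a short gap. The smallest gap between peaks in any list was 2 kb. In siSUV420H1 replicates 1 to 3 a domain of 79, 59 and 81 kb began at 75665001 and ran on over LINC00960 and into ZNF717, a zinc finger gene. In siSUV420H1 replicate 4 the domain began at 75673001, 5.83 kb past the end of FRG2C. In siNC libraries the domain began 8.83 to 9.83 kb past the end of FRG2C, with a first peak of 22, 67, 54 and 8 kb. In DMSO libraries the first peak began 8.83 to 38.8 kb past that end. The edge of the domain thus lay nearer to FRG2C in every siSUV420H1 library than in any siNC library.

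A start at 75665001 lies inside FRG2C, so the promoter printed above was under a peak in 1 of 3 A-196 libraries (replicate 3) and in none of the DMSO, siSUV420H1 or siNC libraries. In A-196 libraries 4.17 kb of the window were common to all 3, and in siSUV420H1 libraries none were common to all 4. ZNF717 itself was marked in all 14 libraries. It had 37.4 ± 17.2 kb under peaks with A-196 and 21 ± 1 kb with DMSO (SD, n = 3 each). With siSUV420H1 it had 55.5 ± 6.28 kb, and with siNC 54.6 ± 4.57 kb (SD, n = 4 each). The ZNF717 lengths of treated and control libraries overlapped in both arms. DUX4L26, a DUX4 pseudogene just past FRG2C, was at 5.46 kb in all 3 A-196 libraries and in siSUV420H1 replicates 1 to 3, and at 0 kb in siSUV420H1 replicate 4 and in every DMSO and siNC library.

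**Figure D3:**
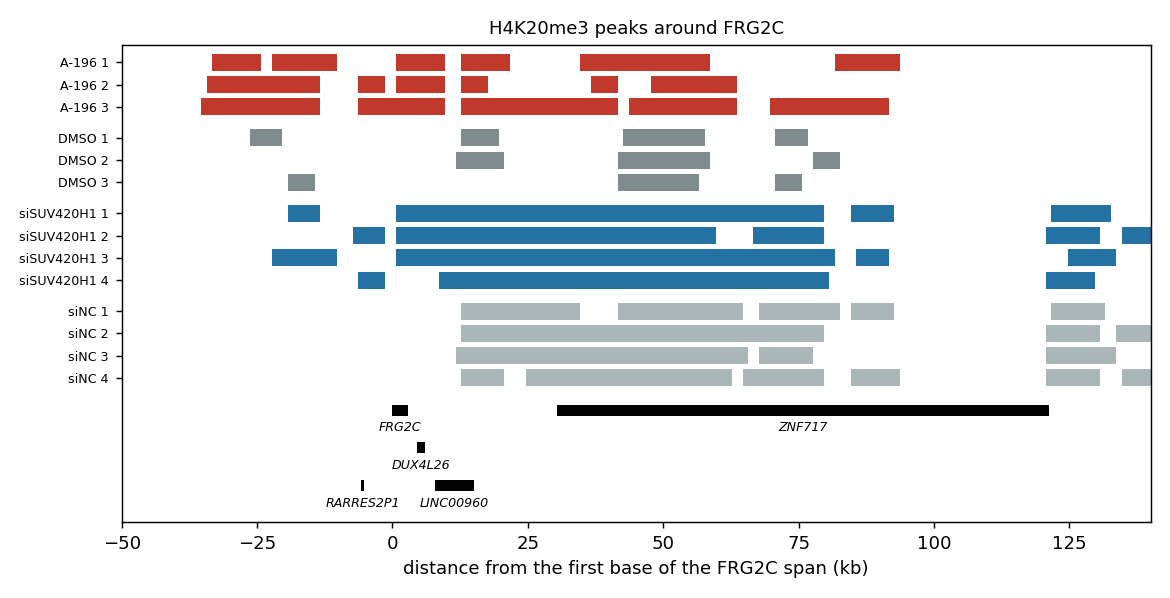
H4K20me3 peaks of each library (coloured blocks, 1 row per library, number = replicate) from 50 kb before to 140 kb after the first base of the FRG2C span; black bars are annotated genes, and the x axis is distance in kb. Blocks reach FRG2C in all 3 A-196 libraries and in siSUV420H1 replicates 1 to 3, while in DMSO and siNC libraries no block lies over FRG2C or DUX4L26.

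FRG2C was 1 of 3 coding genes gained in both arms (0.0151%), with the cadherin gene CDH12 and with TMEM132D. These 3 were 1.86% of the A-196 list and 4.41% of the siSUV420H1 list. The genes most like it over the 14 libraries were ZNF71 (r = 0.890), LOC124901637 (r = 0.884) and PTPRN2 (r = 0.828). ZNF71, a zinc finger gene of chromosome 19, averaged 16.9 kb with A-196 and 0.566 kb with DMSO, and 9.5 kb with siSUV420H1 and 0 kb with siNC. The A-196 gain of FRG2C was kept under all 12 other settings. The siRNA gain was kept under 10 of 14. These counts include settings that leave out a library, which cannot end a call that holds in every library. Of the others, the siRNA gain was kept only when peaks within 5 kb were merged or a mark needed 1 bp. It ended when only peaks no narrower than the arm's median were used, when libraries were held to an equal covered length, when a mark needed at least 1 kb, and when the gene was taken with no flank.

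DUX4 was the constant member. Its RefSeq span, chr4:190173774-190185911 (12.1 kb), is the last coding gene of the chromosome. The length under peaks was 14 kb in each of the 3 A-196 libraries, against 14, 13 and 13 kb in DMSO libraries. It was 14 kb in each of the 4 siSUV420H1 and each of the 4 siNC libraries. A single peak that ended at 190186000 covered the gene and its promoter from end to end in all 14 libraries, and it began at 190172001 in 12 of them and 1 kb later in the other 2, both of DMSO. Of all coding genes, 769 (3.87%) were marked in all 14 libraries.

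Since the treated libraries had fewer bases under peaks in all, the same DUX4 peak was a larger share of them. Per 100 Mb under peaks, DUX4 took 17.6, 13.5 and 13.1 kb in A-196 libraries, against 9.15, 8.88 and 8.97 kb in DMSO libraries. It took 11.3, 10.8, 11.8 and 11.1 kb in siSUV420H1 libraries, against 7.65, 7.31, 7.25 and 7.66 kb in siNC libraries. On this scale treated and control libraries did not overlap in either arm, while the covered bases themselves differed by at most 1 kb. A peak of constant length is higher on this scale in every treated library, since each of these covered less than any of its controls. Of the 769 coding genes marked in all 14 libraries, 34.1% were higher on this scale in every A-196 library and 65.5% in every siSUV420H1 library. Peak lists record presence and not height, so a change in signal inside the DUX4 peak could not be seen. With each A-196 and DMSO library held to its widest peaks up to the same covered length, DUX4 was marked in A-196 libraries and in no DMSO library. The genes most like DUX4 were IGHMBP2 (r = 0.750), TPTE (r = 0.728) and ST7 (r = 0.726), over lengths of DUX4 that took only 2 values.

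FRG1, FRG2 and FRG2B had 0 kb under peaks in all 14 libraries. FRG1 encodes an actin-bundling protein that has been tied to RNA splicing, and its span is chr4:189940872-189963192 (22.3 kb). FRG2 lies at chr4:190024367-190027256 (2.89 kb) and FRG2B at chr10:133623895-133626795 (2.90 kb). Of all coding genes, 13291 (66.9%) were marked in no library, so an unmarked gene was the usual case. A narrow or weak signal under the 5 kb width of the narrowest peak could not be seen in these lists.

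The distance to the nearest peak set these 3 apart from each other and between groups. For FRG2B it was 26.2, 26.2 and 1.21 kb in A-196 libraries, against 54.2 kb in each DMSO library. In siSUV420H1 libraries it lay between 18.2 and 54.2 kb, and in siNC libraries it was 54.2 kb. For FRG2 it was 2.74, 41.4 and 5.37 kb in A-196 libraries, against 73.7, 144 and 76.7 kb in DMSO libraries. In the siRNA arm it was 73.7 to 75.7 kb in siSUV420H1 and 74.7 to 75.7 kb in siNC libraries. For FRG1 it was 66.8, 9.81 and 44.8 kb in A-196 libraries, against 138, 208 and 141 kb in DMSO libraries. It was 125 to 139 kb with siSUV420H1 and 139 to 140 kb with siNC. A peak was thus nearer in every A-196 library than in any DMSO library for all 3 genes, of which FRG1 and FRG2 share a locus; this held for 17% of all coding genes. In the siRNA arm the groups overlapped for all 3, and the nearest peak was nearer in every siSUV420H1 library for 6.08% of coding genes.

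The peaks that came nearer with A-196 were small and seldom shared. Of 17 peak regions in and within 500 kb of the chromosome 4 windows, 8 were seen in 1 library only, and none was lost or gained with A-196. The region nearest FRG2, at chr4:190032001-190037000, was seen in 1 A-196 library, and chr4:190050001-190056000 in 2 of 3 A-196 libraries and no other. Near FRG2B the region chr10:133643001-133662000 was seen in 3 of 3 A-196 libraries (9.67 kb on average) and in no DMSO library, in 2 of 4 siSUV420H1 libraries and in no siNC library. It covers the pseudogenes AGGF1P2 and CLUHP5.

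Peaks outside the 6 windows were not used in choosing the genes and were tested. The length under peaks was summed over 500 kb on each side of the windows at 4 loci (4q35 with FRG1, FRG2 and DUX4, 10q26 with FRG2B, 3p12 with FRG2C, 1p13 with LRIF1), leaving out every peak that touched a window. Both 4q35 and 10q26 lie near chromosome ends. The last annotated gene ended 255 kb past the first base of FRG1 and 155 kb past that of FRG2B, so little of the 500 kb on that side was annotated. Whether a peak was left out turns on the windows used in the choice, which matters at 3p12. An exact two-sided permutation test over libraries was used, with p adjusted over the 4 loci of an arm. The smallest p that 3 against 3 libraries allow is 0.1, and that of 4 against 4 is 0.0286.

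At 4q35, the length near FRG1, FRG2 and DUX4 was 20, 38 and 23 kb in A-196 libraries, against 10, 0 and 11 kb in DMSO libraries. It was 62, 41, 55 and 48 kb in siSUV420H1 libraries, against 13, 11, 19 and 12 kb in siNC libraries. Every treated library was above every control library in both arms. The difference was 20 kb for A-196 (exact permutation p = 0.1, adjusted 0.1) and 37.8 kb for siSUV420H1 (exact permutation p = 0.0286, adjusted 0.0571), and neither passed 0.05 after adjustment. Over all coding genes, the length near the gene was higher in every treated library for 11.2% with A-196 and 5.7% with siSUV420H1, and the median difference was -0.66 kb and -12 kb. Those values were taken around single genes, while the 4q35 stretch spans FRG1, FRG2 and DUX4 near a chromosome end.

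Most of the extra siSUV420H1 length at 4q35 lay more than 250 kb from the windows, since the difference within 250 kb was 10.2 kb (exact permutation p = 0.0286, adjusted 0.0571). The regions chr4:189461001-189473000 and chr4:189490001-189499000 were seen in 4 of 4 siSUV420H1 libraries (10 and 7 kb on average) and in no siNC, A-196 or DMSO library. Between the repeat copies and DUX4, the region chr4:190103001-190125000 was seen in 2 of 3 A-196 libraries (5.67 kb on average) and 2 of 3 DMSO libraries (7 kb). It was seen in all 4 siSUV420H1 (19.2 kb) and all 4 siNC libraries (12.2 kb). No coding gene other than the 3 members lay within 500 kb.

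At 10q26, the length near FRG2B was 28, 39 and 59 kb in A-196 libraries, against 22, 23 and 22 kb in DMSO libraries. It was 40, 28, 33 and 27 kb in siSUV420H1 libraries, against 25, 25, 32 and 17 kb in siNC libraries. The A-196 libraries were all above the DMSO libraries, and the siRNA groups overlapped. The differences were 19.7 kb (exact permutation p = 0.1, adjusted 0.1) and 7.25 kb (exact permutation p = 0.143, adjusted 0.143). Without A-196 replicate 3 the A-196 difference was 11.2 kb, and the siRNA difference was 4.58 kb without siSUV420H1 replicate 1 and 4.67 kb without siNC replicate 4. Per 100 Mb under peaks the siRNA difference was 12.7 kb (exact permutation p = 0.0286, adjusted 0.0571). The region chr10:133683001-133695000, which starts in the repeat copies and covers DUX4L20, measured 12 kb in every one of the 14 libraries. The region chr10:133759001-133769000 over DUX4L15 was 10 kb in each of the 4 siSUV420H1 libraries and absent from siNC libraries, and it was seen in 2 of 3 A-196 libraries and no DMSO library.

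**Figure D4:**
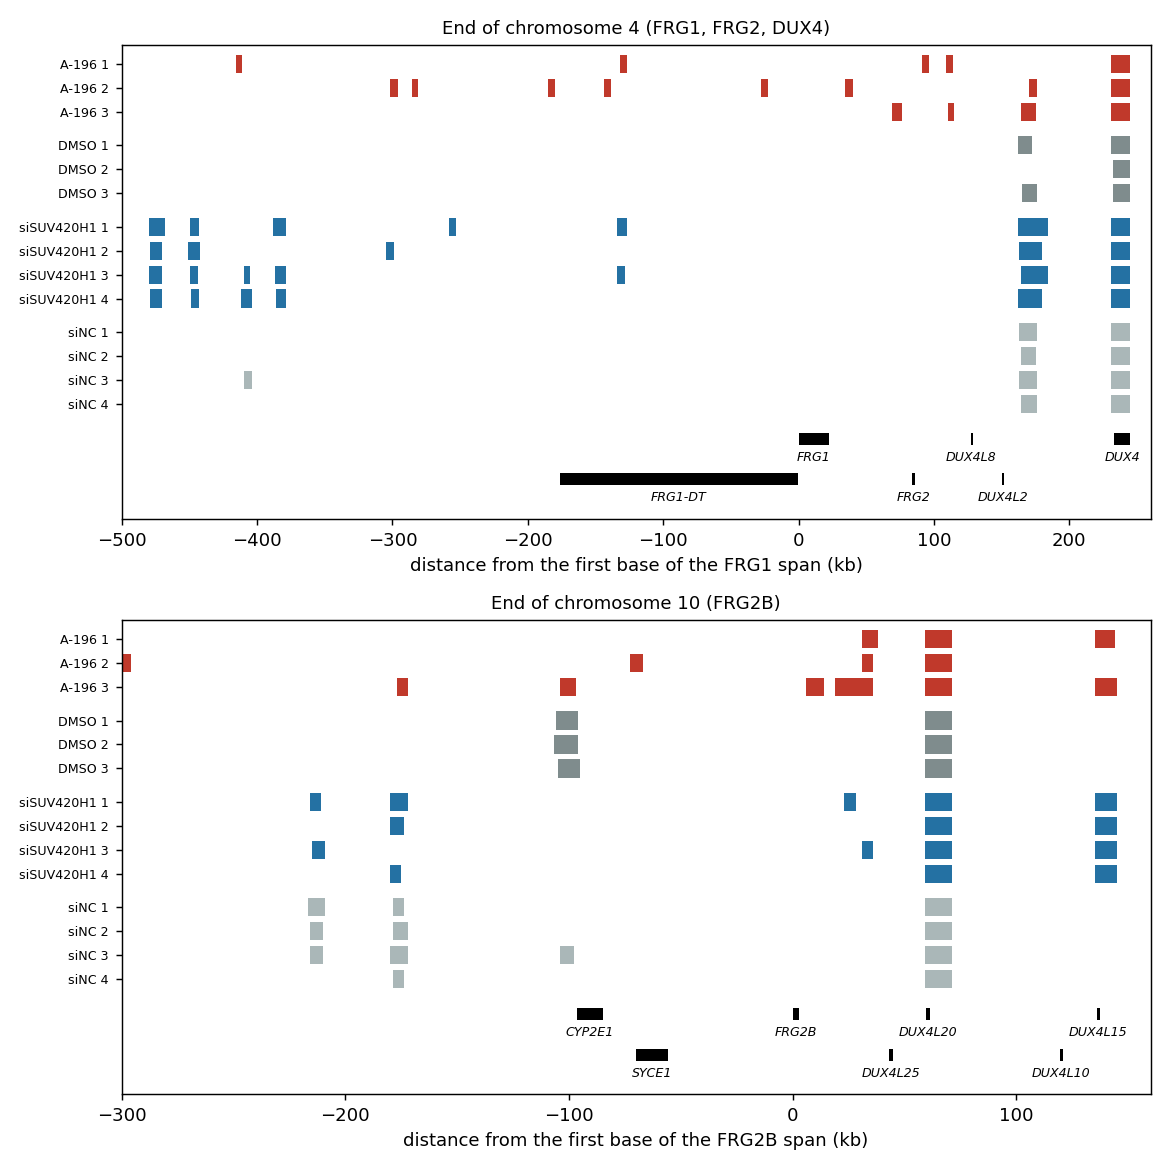
H4K20me3 peaks of each library (coloured blocks, 1 row per library, number = replicate) at the ends of chromosome 4 (upper panel, distance in kb from the first base of the FRG1 span) and chromosome 10 (lower panel, distance from the first base of the FRG2B span); black bars are annotated genes, with some of the DUX4L copies left out. The block over DUX4 and the 12 kb block over DUX4L20 are in all 14 libraries, and no block reaches FRG1, FRG2 or FRG2B.

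At 3p12, the length near FRG2C was 79, 55 and 112 kb in A-196 libraries, against 43, 42 and 36 kb in DMSO libraries. It was 38, 43, 39 and 93 kb in siSUV420H1 libraries, against 89, 98, 89 and 98 kb in siNC libraries. The A-196 libraries were above all DMSO libraries, and siSUV420H1 replicates 1 to 3 below all siNC libraries. The differences were 41.7 kb (exact permutation p = 0.1, adjusted 0.1) and -40.2 kb (exact permutation p = 0.0857, adjusted 0.114). Without A-196 replicate 3 the A-196 difference was 26.7 kb. Per 100 Mb under peaks the siRNA difference was -7.20 kb (exact permutation p = 0.629). The siSUV420H1 value comes from the measure itself, since the long domain touched FRG2C in replicates 1 to 3 and so was left out. With such peaks cut at the window edge instead, a choice made after seeing the data, siSUV420H1 averaged 107 ± 8.56 kb and siNC 93.5 ± 5.20 kb (SD, n = 4 each), a difference of 13.8 kb (exact permutation p = 0.0857).

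At 1p13, the length near LRIF1 was 25, 30 and 17 kb in A-196 libraries, against 10 kb in each DMSO library. It was 20, 15, 16 and 20 kb in siSUV420H1 libraries, against 48, 27, 38 and 31 kb in siNC libraries. The summed length went opposite ways in the arms, with every A-196 library above every DMSO library and every siSUV420H1 library below every siNC library. The differences were 14 kb (exact permutation p = 0.1, adjusted 0.1) and -18.2 kb (exact permutation p = 0.0286, adjusted 0.0571). Per 100 Mb under peaks the siRNA difference was -4.96 kb (exact permutation p = 0.114, adjusted 0.152). Over all coding genes the length near the gene was lower in every A-196 library for 31.3% and in every siSUV420H1 library for 59.8%. The region chr1:111058001-111067000 was seen in 0 of 4 siSUV420H1 libraries, against 4 of 4 siNC libraries (7.75 kb on average), and in no A-196 or DMSO library. The region chr1:111094001-111107000, the only one that DMSO peaks formed outside the window, was shorter on average with both treatments. It averaged 4 kb with A-196 and 10 kb with DMSO, and 4.5 kb with siSUV420H1 and 11.25 kb with siNC. Of 16 peak regions at this locus, 8 were seen in 1 library only.

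The difference between the arms was itself set against libraries permuted within each arm (1400 assignments). Such permuting takes neither treatment to have an effect, so its p does not test whether the effects of both treatments are equal. At 1p13 the difference between the arms was 32.2 kb (exact permutation p = 0.00143, the smallest these assignments allow, adjusted 0.00571). It was 14.2 kb at 250 kb on each side (adjusted exact permutation p = 0.117) and 17.7 kb at 1 Mb (adjusted 0.517), and the A-196 difference alone was -1 kb and -28.0 kb at those distances. At 500 kb with only wide peaks (no narrower than the arm's median) the arms went the same way, by -6 and -9.75 kb, and with libraries held to an equal covered length by 20.7 and 7 kb. The opposite direction near LRIF1 was thus not kept at either other distance, with wide peaks or at equal covered length. At 3p12 the arms differed by 81.9 kb (exact permutation p = 0.00429, adjusted 0.00857), and by 35.6 kb (exact permutation p = 0.221, adjusted 0.411) with peaks cut at the window edge. The 81.9 kb rest in part on leaving out the long domain that touched FRG2C in most siSUV420H1 libraries. Since the choice of FRG2C used that contact, nothing is read from the p of 0.00429. The tests missed 0.05 at 4q35 (-17.8 kb, exact permutation p = 0.354) and 10q26 (12.4 kb, exact permutation p = 0.411).

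**Figure D5:**
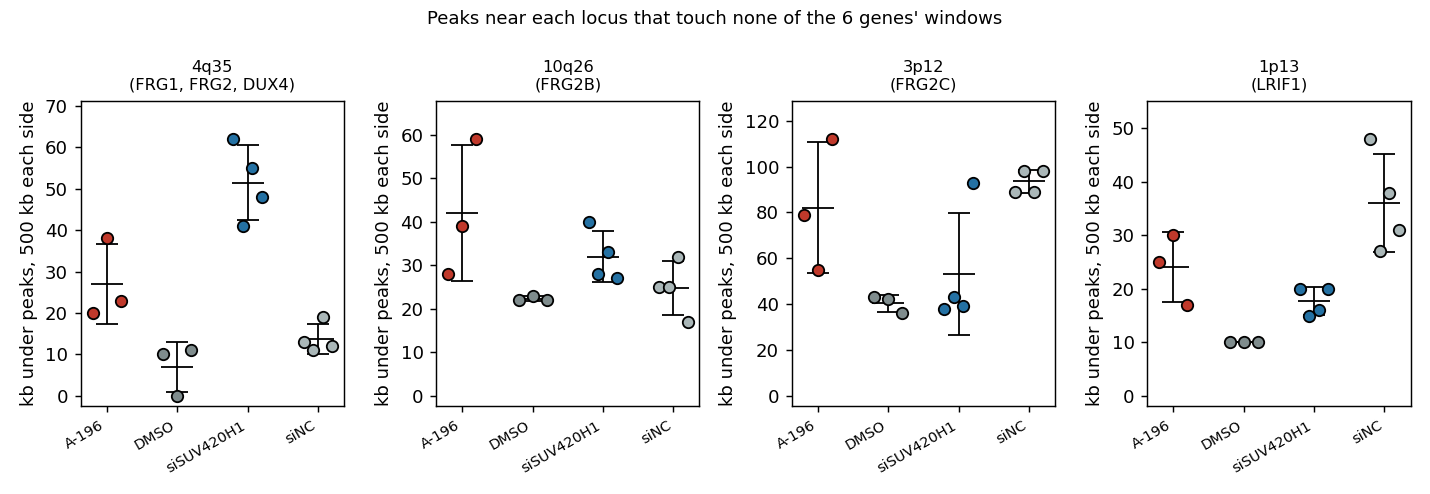
Length under H4K20me3 peaks, in kb, within 500 kb on each side of the gene windows at the 4 loci, leaving out peaks that touch a window; points are libraries, and bars are the mean and SD of 3 (A-196, DMSO) or 4 (siSUV420H1, siNC) libraries. Near 4q35 siSUV420H1 libraries lie at 41 to 62 kb and siNC libraries at 11 to 19 kb, while near 1p13 they lie at 15 to 20 kb and 27 to 48 kb.

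Coding neighbours carried the mark about as often as coding genes did in general. Within 500 kb of the windows lay 18 coding genes at 10q26 (6 marked in any library), 2 at 3p12 (both marked) and 16 at 1p13 (4 marked). The share marked in any library was 33.3% of the 36 neighbours and 33.1% of all coding genes. None of the neighbours was lost or gained in either arm. At 1p13 the largest difference was at CIMAP3, with 0 kb in each siSUV420H1 library, against 13, 0, 5 and 6 kb in siNC libraries. CHIA, a chitinase gene, had 5.67 ± 6.03 kb with A-196 and 0 kb with DMSO (SD, n = 3 each). At 10q26 KNDC1 had 3.67 ± 6.35 kb with A-196, all of it in 1 library, and 0 kb with DMSO (SD, n = 3 each). CYP2E1, a cytochrome that oxidises ethanol, had 0.546 kb with A-196 and 2.97 kb with DMSO on average. Beside ZNF717, the other 3p12 neighbour was ROBO2, an axon guidance receptor, with 3.67 ± 3.21 kb with A-196 and 0 kb with DMSO (SD, n = 3 each).

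The other copies of these genes show how much of the repeat family carried the mark. RefSeq lists 71 further entries named DUX4L, FRG1 or FRG2, nearly all pseudogenes (1, FRG1-DT, is a divergent transcript of FRG1 and not a copy). Of these, 15 were marked in all 14 libraries, 36 in none and 20 in some. Of all pseudogenes, 1.98% were marked in all 14 libraries and 79.9% in none. All 7 copies on chromosome 22 and 4 of 13 on chromosome 20 were marked throughout, whereas 9 of 10 entries on chromosome 4, the DUX4L copies in and beside the repeat array, were marked in none. Those 7 lie within chr22:10940597-12694102 and those 4 within chr20:28580633-30419843. The share over all pseudogenes takes no account of place. Whether other pseudogenes of these stretches were marked as often was not tested. By family, 10 of 51 DUX4L, 5 of 10 FRG1 and 0 of 10 FRG2 entries were marked in all 14. The unmarked array copies stand beside the constantly marked DUX4. How reads shared among array copies were placed is not given in the sources used here, and its part in this contrast was not tested.

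No copy was lost in either arm, against 1.65% of all pseudogenes with A-196 and 2.03% with siSUV420H1. With A-196 1 of 71 was gained (DUX4L26), against 0.282% of pseudogenes. With siSUV420H1 3 of 71 were gained (DUX4L14 and DUX4L15 of chromosome 10 and DUX4L36 of chromosome 20), against 0.27%. DUX4L14, through its flank alone, and DUX4L15 lie under 1 shared peak, and DUX4L26 lies under the peak of FRG2C. The length was higher in every treated library for 3 copies with A-196 (0.426% of pseudogenes) and for 5 with siSUV420H1 (0.751%), and lower in every treated library for none (2.72% and 3.25%). Copies share sequence and may share reads, so they are not independent of each other.

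Some FRG1 pseudogenes held the longest cover, over windows that are longer than those of the DUX4L copies. By mean length over the 14 libraries the first 6 were FRG1FP (23.9 kb), FRG1BP (22.8 kb), FRG1DP (18.3 kb), FRG1CP (16.0 kb), FRG1EP (16.0 kb) and FRG1GP (14.8 kb), on chromosomes 20 and 22. FRG1FP had 21.2 ± 5.93 kb with A-196 and 23.6 ± 1.27 kb with DMSO (SD, n = 3 each), and 24.9 kb in every siSUV420H1 and siNC library. FRG1BP was 8.84, 21.7 and 32.7 kb in A-196 libraries, against 8.84, 14.8 and 7 kb in DMSO libraries. It was 34.7, 42.7, 30.7 and 33.7 kb in siSUV420H1 libraries, against 14.7, 23.8, 21.8 and 22.8 kb in siNC libraries. The siRNA groups of FRG1BP did not overlap, and its inhibitor groups did, since DMSO replicate 2 lay above A-196 replicate 1. FRG1 itself, the source gene, was at 0 kb throughout.

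Genes of the pathway around DUX4 were read from a pair of lists. Of 44 genes whose proteins act on D4Z4 or its heterochromatin, none was lost or gained in either arm (of all coding genes, 1.78% were lost and 0.81% gained with A-196, and 2.98% and 0.342% with siSUV420H1). In no library were 32 marked (72.7%, against 66.9% of all coding genes). On average 4.33 ± 2.52 of them were marked in A-196 and 3 ± 1 in DMSO libraries (SD, n = 3 each), and 4.5 ± 0.58 in siSUV420H1 and 4 in each siNC library. The longest cover in controls was over EHMT1, a histone H3 lysine 9 methyltransferase, with 3.67 kb with A-196 and 10.7 kb with DMSO, and 21 kb with siSUV420H1 and 18 kb with siNC. RAD21, a cohesin subunit, had 2.18 kb with A-196 and 4.78 kb with DMSO, and 4.78 kb with siSUV420H1 and 5.78 kb with siNC. SETDB1, another H3 lysine 9 methyltransferase, was at 0 kb in both inhibitor groups, and at 9 kb with siSUV420H1 and 6.25 kb with siNC. SMCHD1, the partner of LRIF1, was marked in 1 A-196 library and no other. KMT5B and KMT5C, the genes of the enzymes themselves, were at 0 kb in every library.

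Of 60 genes that DUX4 or its homeobox relatives induce and that the table holds, none was lost or gained, and 52 were marked in no library (86.7%, against 66.9% of all coding genes). ZSCAN4, a zinc finger gene that DUX4 switches on in early embryos, was the 1 gene of the list marked in all 14 libraries, with 31.7 kb in each A-196 and DMSO library, and 14.9 ± 0.50 kb with siSUV420H1 and 13.4 ± 0.96 kb with siNC (SD, n = 4 each). DPRX, a homeobox gene, had 12.3 kb with A-196 and 6 kb with DMSO, and 28.4 kb with siSUV420H1 and 16 kb with siNC on average. Most genes being unmarked, the median difference was 0 kb for both lists and for all coding genes. Over genes marked in the inhibitor arm it was 1.60 kb for 10 factors, 1.01 kb for 7 induced genes and 1.19 kb for all 5613 coding genes. Over genes marked in the siRNA arm it was 2.75 kb for 5 factors, 1.38 kb for 4 induced genes and -1.25 kb for all 3959 coding genes. The list medians thus rest on 4 to 10 genes each.

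The marker lists were read only for whether the mark lay over them. Of 8 squamous genes 2 were marked in any library, TP63 and DSG3, and TP63, a transcription factor of squamous cells, had 78.6 kb with A-196 and 222 kb with DMSO, and 54.0 kb with siSUV420H1 and 123 kb with siNC. No squamous marker was called lost or gained, and over fibroblast, endothelial, leukocyte and muscle markers 2 of 14 were lost with siSUV420H1, PECAM1 and DES, against 2.98% of all coding genes. The label of the line as squamous could not be checked from a repressive mark alone.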

How the data were processed

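The 14 H4K20me3 CUT&RUN libraries of HN-SCC-151 cells were grouped by their titles. The other 10 of the 24 labelled samples (IgG, H3K4me3, H3K27me3) were not analysed here. Each deposited list gives only where broad peaks begin and end, in base pairs, called per library against 1 IgG library, per the labels (the inhibitor arm used the DMSO IgG, the siRNA arm an IgG whose label names no treatment). Per the submitters' processing notes, the authors used hg38, cutadapt 4.4, Bowtie, Picard 2.27.3 and bedtools 2.30.0. For the peak caller, its settings and reads with several matches, the details were not given in the sources used here. Peak ends lie on a 1 kb grid (1000 bp), and the narrowest peak is 5 kb wide.

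Windows were RefSeq spans (GRCh38.p14, primary chromosomes) plus 2 kb on each side. Lengths under peaks were computed with Python 3.11.15, numpy 2.4.6 and pandas 2.3.3, and drawn with matplotlib 3.10.9. The 2 arms were tested apart, by exact two-sided permutation over libraries with Benjamini-Hochberg adjustment over the 4 loci at a threshold of 0.05, and the code was tested on simulated data. The difference between the arms was set against permuted libraries too, outside the plan, although the arms have different IgG libraries and controls. The 6 genes and all gene lists were chosen with earlier results of these data known. Besides the 6 genes, the text names coding neighbours among the 4 per locus with the largest difference, list genes by longest cover in controls, copies by mean cover and the 3 genes most alike; SMCHD1, KMT5B, KMT5C, the markers and the regions near the loci were picked after their values were seen. Other settings tried were peak width, equal covered length, merging, smallest overlap, flank, distance and each library left out. Replicate numbers were not used as pairs in the main tests. Same-numbered treated and control libraries did not deviate together, but whether they share a dish or day is not labelled and cannot be told from this.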

Additional observations from a re-analysis of the deposited data

Results flagged for a closer look

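Among 22 groups of 4 libraries, 3 held a library far from its partners, and chance alone picks about 1 in 20 groups whose values vary. Many of the 22 had the same value in all 4 libraries, as at FRG1, FRG2, FRG2B and DUX4, and could not be flagged. All 3 are siSUV420H1 replicate 4 at FRG2C: 0.673 kb of FRG2C under peaks, 14.673 kb summed over the 6 genes, and 93 kb near 3p12, where its domain stopped short of FRG2C and so was counted. These are 1 event seen in 3 measures.

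The arms differed by 81.9 kb near 3p12 (exact permutation p = 0.00429) and by 32.25 kb near 1p13 (exact permutation p = 0.00143), of 4 loci compared. The permuting takes neither treatment to have an effect, so these p do not test whether the effects of both treatments are equal. Neither difference held under every setting. The 3p12 value rests in part on leaving out a domain because it touched the FRG2C window, so nothing is read from its p. It was 35.6 kb with peaks cut at the window edge (adjusted exact permutation p = 0.411). The 1p13 value was 14.2 kb at 250 kb (adjusted 0.117), 17.7 kb at 1 Mb (0.517), 3.75 kb with wide peaks (0.813) and 13.7 kb at equal covered length (0.3).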

How the results depend on the processing

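For the length near the 4 loci, all 56 values with a library left out kept their direction. Where treated and control libraries did not overlap, leaving out a library cannot turn the direction. That was so at all 4 loci with A-196 and at 4q35 and 1p13 with siSUV420H1. The exact permutation test cannot go below p = 0.1 in the A-196 arm, so its side of 0.05 says nothing of stability. Of 72 values under other settings 6 turned round. With only peaks no narrower than the arm's median (wide peaks), A-196 minus DMSO turned to -3.33 kb at 4q35 and -6 kb at 1p13. With that setting siSUV420H1 minus siNC passed the threshold at 4q35 (21.5 kb), 10q26 (10 kb) and 1p13 (-9.75 kb; adjusted exact permutation p = 0.0381 each). At 1p13 the A-196 difference was -1 kb at 250 kb and -28.0 kb at 1 Mb, and the siRNA difference was 7 kb with the widest peaks at equal covered length. At 3p12 the siRNA difference was 13.8 kb with peaks cut at the window edge, which adds back the domain that touches FRG2C.

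The difference between the arms at 1p13 was 14.2 kb at 250 kb, 17.7 kb at 1 Mb, 3.75 kb with wide peaks and 13.7 kb at equal covered length, none past 0.05. At 3p12 it was 35.6 kb with cut peaks, also not past 0.05. At 4q35 it was 4.42 kb at 250 kb and, past 0.05, -24.8 kb with wide peaks. At 10q26 it was -2 kb with wide peaks. These settings were added after the data were seen, and the cause of the shifts was not tested.

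Summed over the 6 genes, A-196 minus DMSO was 19.1 kb at equal covered length, 8.53 kb with 10 kb flanks and 4.61 kb per 100 Mb, against a negative main difference, and -7.27 kb with no flank. The siRNA sum was -20.9 kb with no flank, -10.5 kb with 10 kb flanks and -5.43 kb per 100 Mb. Coding genes gained with A-196 numbered 23 with wide peaks. At equal covered length 91 were lost and 341 gained with A-196, and 117 and 578 with siSUV420H1. With a library left out, the counts ran from 397 to 552 lost and 168 to 441 gained with A-196.

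A replicate block gave the same differences near the loci, such as 37.8 kb at 4q35 in the siRNA arm, where paired sign changes give p = 0.125 (exact permutation, the smallest 4 pairs allow), and 20 kb in the A-196 arm (0.25, the smallest 3 pairs allow). The r between same-numbered libraries ran from -0.578 to 0.241 over 2850 bins, and no library was most like its own number. Whether same-numbered libraries share a source is not labelled and cannot be told from these values. Peak depth is unknown, and signal below the 5 kb peak width is not seen.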
